A study of Homo sapiens with 3 samples.

Results

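Krüppel-like factors (KLF) are transcription factors that bind GC-rich DNA through zinc fingers at their C-terminal end, while the rest of the protein recruits either activators or corepressors. Members of the family control quiescence, homing and differentiation of lymphocytes, and several are early responders to growth factors, shear stress or transforming growth factor beta. The 10 KLF genes KLF2, KLF3, KLF4, KLF6, KLF7, KLF9, KLF10, KLF11, KLF12 and KLF13 were followed in Hodgkin's lymphoma (HL) cell lines. Each gene was represented by 1 transcript cluster, found by its platform gene symbol, so that the family made up 10 of 16840 clusters with a gene name and of 22011 clusters in all. Of these clusters, 9 were paired with 1 gene, whereas the cluster of KLF11 is shared with CYS1, the next gene in the gene order of GRCh38.p14. The genes were chosen by symbol with their signals in these same arrays already known. All signals given for them are therefore a description.

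The signals come from Affymetrix Human Exon 1.0 ST arrays, onto which total RNA of the established HL lines L-428, L-540 and HDLM-2 was hybridized, each on 1 array. L-428 is derived from a B cell, and L-540 and HDLM-2 carry features of T cells. According to the sample descriptions, vorinostat, a histone deacetylase inhibitor, was given to L-428 and HDLM-2, whereas none is mentioned for L-540 and the study's text names no treatment for these arrays. Line and treatment cannot be told apart. Signal intensities were given on a linear scale after robust microarray analysis (RMA), and those above 100 were counted as expressed. Each line is an established culture measured once, so no difference could be set against a replicate error and no test was made. In RNA from a whole culture, fewer cells with a transcript and less transcript per cell cannot be told apart.

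Signals reached from 0.677 to 13700 over the arrays, with medians between 7.16 and 9.18. The L-428 array held more high signals, with 1126 named clusters above 100, while HDLM-2 had 599 and L-540 had 677. Identical values in all lines were found for 39% of the named clusters and are not read as equal expression. The HL markers CD30 (TNFRSF8), with 158 in L-540, 158 in HDLM-2 and 145 in L-428, and IRF4, with 598 in each line, were above 100 throughout. The other HL markers varied, and L-540 was lowest in each of them. CCL17 had 20.9 in L-540, 233 in HDLM-2 and 79.3 in L-428, TRAF1 had 18.6, 31.5 and 116 in the same order, and FSCN1 had 217, 697 and 2075. Of 22 markers of B, T, myeloid, red and stromal cells, 19 had a cluster of their own, and the highest signal among them was that of CD7, with 28.9 in HDLM-2. CD79A, with 3.17 in each line, and CD3D, with 1.48 in each line, were below the median of each array.

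KLF proteins recognize CACCC and GC-box sequences. The 200 bases before the transcription start are shown for KLF13, KLF6 and KLF2, which varied most between the lines among the members with a single start that coincides with the edge of the gene in RefSeq (GRCh38.p14). They are written from 5′ to 3′ on the strand of the gene, and capitals mark CACCC or GGGCGG in either orientation and, for KLF2, a match to the binding motif of the MEF2 factors. The region of KLF13 is chr15:31326635-31326834 on the plus strand, that of KLF6 is chr10:3785210-3785409 on the minus strand and that of KLF2 is chr19:16324626-16324825 on the plus strand.
KLF13: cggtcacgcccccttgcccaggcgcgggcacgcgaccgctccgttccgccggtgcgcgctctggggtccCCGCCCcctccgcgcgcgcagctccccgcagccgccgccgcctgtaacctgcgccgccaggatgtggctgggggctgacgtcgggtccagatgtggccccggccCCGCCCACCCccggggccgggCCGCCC
KLF6: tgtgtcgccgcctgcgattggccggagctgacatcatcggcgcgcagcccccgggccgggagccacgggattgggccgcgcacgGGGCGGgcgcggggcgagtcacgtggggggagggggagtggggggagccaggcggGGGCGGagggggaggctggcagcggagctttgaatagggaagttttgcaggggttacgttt
KLF2: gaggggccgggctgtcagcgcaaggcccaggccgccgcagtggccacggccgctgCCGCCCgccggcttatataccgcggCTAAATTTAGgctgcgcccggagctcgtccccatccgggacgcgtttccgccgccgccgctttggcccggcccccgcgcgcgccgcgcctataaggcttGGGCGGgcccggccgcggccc

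KLF13 held 3 matches to GGGCGG and 1 to CACCC, of which the CACCC and a GC box overlap. KLF6 and KLF2 held 2 matches to GGGCGG each and none to CACCC. In KLF2 the MEF2 match lies between both GC boxes. Over 35116 promoter regions of the same length, 40.1% held GGGCGG, 48% held CACCC and 2.12% held a MEF2 match, counting both strands. Among the members, 8 had at least 1 region in the table, with 15 regions in all and none for KLF3 and KLF10, and GGGCGG was found in 8 and CACCC in 6 of these 15 regions. Counted by gene, 7 of the 8 members had GGGCGG and 4 had CACCC in at least 1 region. A count by gene rises with the number of regions and cannot be set against the shares by region above. No share by gene was counted over all genes, so nothing is read from it. The 4 regions of KLF7 differed among themselves, as only 1 of them held GGGCGG, with 4 matches. A match describes the letters of a region and is no measured binding site.

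Above the threshold of 100 were 2 of the 10 KLF clusters in L-540, 1 in HDLM-2 and 0 in L-428. Among all named clusters, 4.02% exceeded 100 in L-540, 3.56% in HDLM-2 and 6.69% in L-428. The members above 100 were KLF7 and KLF13 in L-540 and the cluster of KLF11 and CYS1 in HDLM-2. In L-428, KLF3 was just below the threshold with 97.1. A signal also depends on the probes of its cluster, so signals are compared between lines and not between genes. Between their highest and lowest line, 5 members differed at least 2-fold and the other 5 less than 1.5-fold. A 2-fold range was found for 22.1% of all named clusters, and since the family was chosen with these values known, nothing is read from this contrast.

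**Figure D1:**
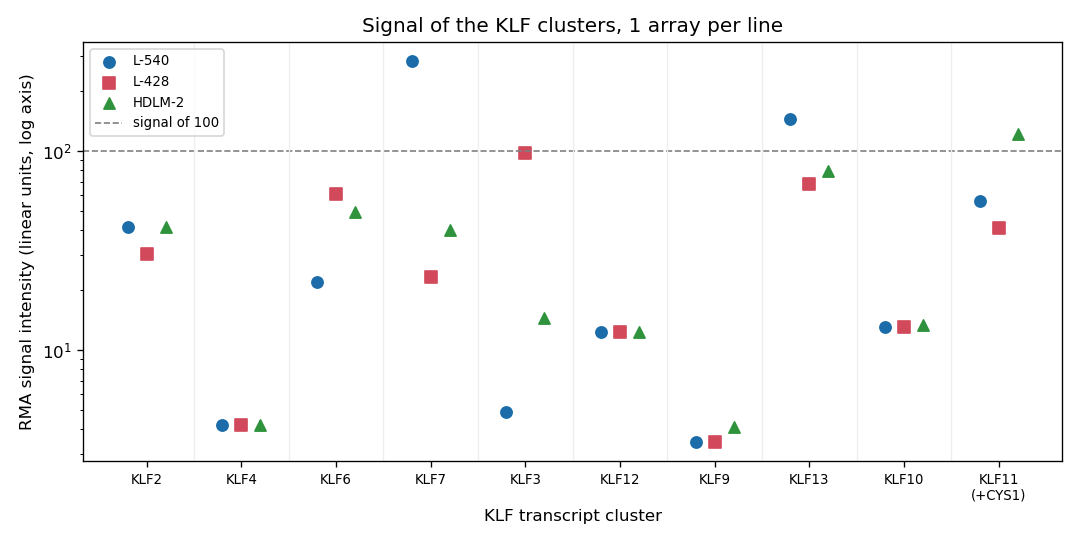
RMA signal intensity (linear units on a log axis) of each KLF transcript cluster in L-540 (circles), L-428 (squares) and HDLM-2 (triangles), 1 array per line, with the threshold of 100 as a dashed line. KLF7 and KLF13 lie above 100 in L-540 and the cluster of KLF11 and CYS1 in HDLM-2, KLF3 spans from 4.86 to 97.1, and KLF4 and KLF12 have the same value in all lines.

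KLF7 was the member with the clearest excess in L-540. The protein is best known for its role in neurons, where it supports axon growth in the mouse. Its signal was 281 in L-540, 40.0 in HDLM-2 and 23.3 in L-428. L-540 was thus 12.05-fold above L-428 and 7.02-fold above HDLM-2. These were the only differences of the family that reached 4-fold with the higher signal above 100. Such calls were made for 0.338% of all named clusters for L-540 over L-428 and for 0.35% for L-540 over HDLM-2. Within the arrays, KLF7 was at the 98.9th percentile of named clusters in L-540, the 89.0th in HDLM-2 and the 72.7th in L-428. HDLM-2 was above L-428 by 0.78 on the log2 scale. With an offset of 50 added before the logarithm, the log2 difference of HDLM-2 minus L-540 was -1.88, which is under 4-fold. KLF6, the nearest relative of KLF7 and a broadly expressed early response factor, was ordered the other way. It had 21.96 in L-540, 49.03 in HDLM-2 and 60.8 in L-428, and L-540 was lowest by 1.47 on the log2 scale against L-428 and by 1.16 against HDLM-2. No value of KLF6 reached 100. The order of L-428 and HDLM-2, with a log2 difference of -0.31 for HDLM-2 minus L-428, turned to 0.48 after quantile normalization and to 0.05 with the arrays shifted to one median.

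Among genes above 100 in at least 1 line, those whose log2 pattern over the 3 lines was nearest to KLF7 were ARRDC3, RASAL3 and ANXA6. Nearness was measured as the Euclidean distance of log2 signals centered on the mean of the gene, among 1127 genes. ARRDC3, an arrestin domain protein, was at a distance of 0.23, with a signal of 106 in L-540, 17.2 in HDLM-2 and 11.0 in L-428. RASAL3, a GTPase-activating protein of Ras in hematopoietic cells, was at 0.43, and ANXA6, a calcium-dependent membrane-binding protein, was at 0.53. With only 3 arrays this nearness is a description.

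KLF3 and KLF12 act as repressors that bind the corepressor CtBP. KLF3 showed the widest range of the family, with signals of 4.86 in L-540, 14.5 in HDLM-2 and 97.1 in L-428. L-428 was 19.99-fold above L-540 and 6.68-fold above HDLM-2, and HDLM-2 was 2.99-fold above L-540. Its place among the named clusters moved from the 37.2nd percentile in L-540 to the 93.0th in L-428 and the 68.1st in HDLM-2. As the highest signal remained just under 100, KLF3 was not among the clusters counted as different. Such calls were made for 1.47% of all named clusters for L-428 over L-540 and for 1.95% for L-428 over HDLM-2, and for 0 of the 10 members in both comparisons. The signal of KLF3 in L-540 was below the median of that array, so the size of the fold rests on a low signal. KLF12, a repressor first described at the promoter of TFAP2A, had 12.3 in each line, and this tie is not read as equal expression.

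Selected after its values were seen, KLF3 was also compared with 1128 genes chosen by the same threshold. The nearest patterns were those of PAX9 at a distance of 0.26, VAMP8 at 0.32 and CBX5 at 0.38. PAX9, a developmental transcription factor, had 15.8 in L-540, 37.4 in HDLM-2 and 258 in L-428. CBX5, which encodes the heterochromatin protein HP1 alpha, had 32.9 in L-540, 73.9 in HDLM-2 and 462 in L-428. Both were picked for their nearness to KLF3, so sharing its order of the lines follows from the choice and is a description.

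KLF9 and KLF13 recruit the corepressor SIN3A. KLF13, which binds the promoter of the chemokine gene CCL5 in activated T cells, had 145 in L-540, 79.2 in HDLM-2 and 68.0 in L-428. It was 2.13-fold higher in L-540 than in L-428 and 1.83-fold higher than in HDLM-2. These are small differences next to those of KLF7, but L-540 was the highest line for both genes. CCL5 itself, named here after its values were seen, had 30.5 in L-540, 30.5 in HDLM-2 and 77.2 in L-428, each below the threshold. The tie of CCL5 in L-540 and HDLM-2 is not read as equal expression. KLF13 was lowest in L-428, but only 1.17-fold below HDLM-2, and a link between KLF13 and CCL5 was not tested. KLF9, which is induced by glucocorticoids and thyroid hormone, had 3.46 in L-540, 4.13 in HDLM-2 and 3.46 in L-428, below the median of each array.

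KLF10 and KLF11 were described as early genes induced by transforming growth factor beta, with a repressor domain that also binds SIN3A. KLF10 had 13.0 in L-540, 13.3 in HDLM-2 and 13.0 in L-428, and the tie of L-540 and L-428 is not read as equal expression. The cluster shared by KLF11 and CYS1 had 55.8 in L-540, 121 in HDLM-2 and 40.9 in L-428. It was 2.17-fold higher in HDLM-2 than in L-540 and 2.96-fold higher than in L-428, and the latter difference passed 4-fold after quantile normalization, with a log2 value of 2.35. HDLM-2 was the only line above 100, but the arrays do not separate KLF11 from CYS1, which encodes a protein of the primary cilium. Calls of at least 4-fold with HDLM-2 above 100 were made for 0.291% of all named clusters against L-540 and for 0.309% against L-428, and for 0 of the 10 members in each.

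KLF2 and KLF4 belong to the activating branch of the family. KLF2, which keeps T cells quiescent and maintains homing receptors such as S1PR1, had 41.4 in L-540, 41.4 in HDLM-2 and 30.5 in L-428. L-428 was lower by 0.44 on the log2 scale, and HDLM-2 minus L-428 became 1.14 after quantile normalization. Steps of similar size with the same tie of L-540 and HDLM-2 also occurred in genes of the lists below. The tie is not read as equal expression. KLF4, a factor of epithelial differentiation and reprogramming, had 4.19 in each line, below the median of each array.

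**Figure D2:**
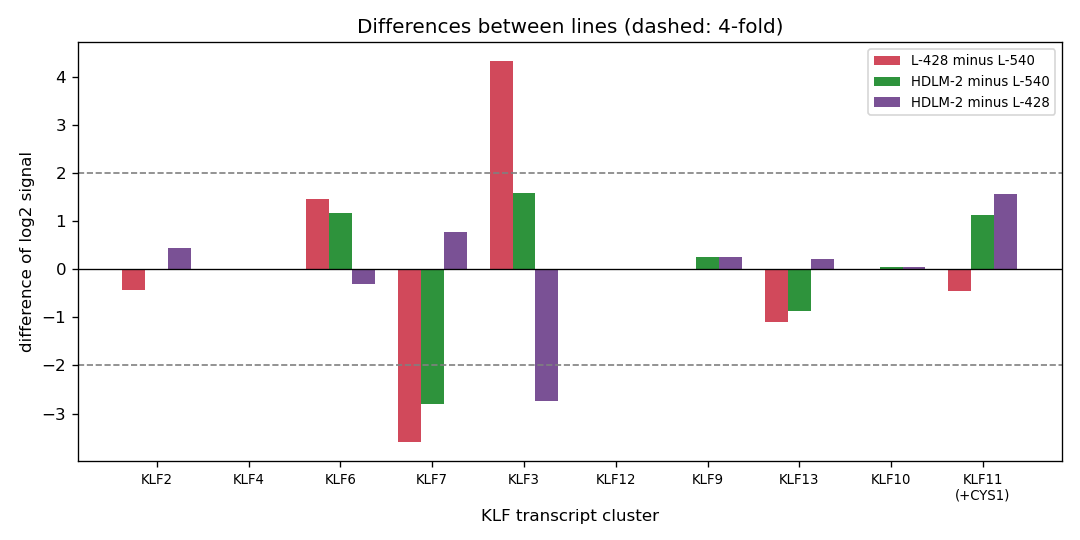
Difference of log2 signal between lines for each KLF cluster (red, L-428 minus L-540, green, HDLM-2 minus L-540, and purple, HDLM-2 minus L-428), with dashed lines at 4-fold. The bars of KLF7 against L-540 (-3.59 and -2.81) and those of KLF3 that involve L-428 (4.32 against L-540, and -2.74 where L-428 is taken from HDLM-2) lie outside the dashed lines, while KLF4 and KLF12 have no visible bar because their values are identical.

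At the deposited scale members differed in both directions. For L-428 minus L-540, 2 members were higher, 4 lower and 4 tied, with a median log2 difference of 0 for the family and 0 for all named clusters. For HDLM-2 minus L-540, 5 were higher, 2 lower and 3 tied, with medians of 0.02 and 0. For HDLM-2 minus L-428, 6 were higher, 2 lower and 2 tied, with medians of 0.13 and 0. Ties made up 47.5%, 52.3% and 44.5% of all named clusters in the same order, so their medians of 0 say little. Among the 1331 named clusters above 100 in at least 1 line, the medians were 0.73, -0.07 and -0.97 in that order. This filter favors L-428, which had 1126 named clusters above 100, while L-540 had 677 and HDLM-2 had 599. Nothing is therefore read from these medians. These comparisons share arrays, so they are not independent of each other. When the arrays were shifted to one median, the median of all named clusters became -0.31 for L-428 minus L-540. By more than 0.1 on the log2 scale, 2 members were then higher and 8 lower. These 8 include the 4 tied members, which the shift alone moved, so the larger count says nothing on the family. KLF7 and KLF13 were higher in L-540 than in both lines described with vorinostat, and KLF6 and KLF3 were lower in L-540 than in both, with each scaling of the arrays tried. The other 6 members did not separate L-540 from both lines in 1 direction. A part of vorinostat in these differences was not tested.

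Of 8 further KLF genes, 7 had a cluster of their own and none exceeded 100 in any line. The nearest to the threshold was KLF16, with 50.5 in L-540, 51.6 in HDLM-2 and 50.5 in L-428. KLF5, a factor of epithelial growth, had 19.0 in each line, and KLF1, the erythroid member, had 22.2 in L-540, 26.8 in HDLM-2 and 22.2 in L-428.

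Genes around the family were followed in 5 lists with 61 entries, of which 56 had a cluster of their own and 9 exceeded 100 in at least 1 line. The SP factors bind the same GC boxes as the KLF proteins, and SP1 was the only one of 9 above 100. It had 38.1 in L-540, 29.3 in HDLM-2 and 109 in L-428. Among 14 measured corepressors, coactivators and ubiquitin ligases, only HDAC1 and HDAC3 exceeded 100. HDAC1 had 100.4 in L-540, 95.8 in HDLM-2 and 167 in L-428, and HDAC3 had 126, 125 and 117 in the same order. The corepressor gene CTBP1 had 69.05 in each line and SIN3A had 31.4 in L-540, 30.7 in HDLM-2 and 67.5 in L-428, and neither is above the threshold. HDAC2, named after its values were seen, had 9.71 in L-540, 9.71 in HDLM-2 and 86.5 in L-428, each below the threshold. Its tie of L-540 and HDLM-2 is not read as equal expression.

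Upstream of KLF2 and KLF10, the kinase ERK5 with the MEF2 factors, the FOXO factors and the transforming growth factor beta pathway were listed, and 12 of 14 genes had a cluster of their own. MEF2C, a transcription factor of B cells, was the only one above 100. It had 260 in L-540, 24.4 in HDLM-2 and 132 in L-428, a log2 difference of -3.42 for HDLM-2 minus L-540. KLF2, whose promoter holds the MEF2 match shown above, had the same signal in L-540 and HDLM-2. This tie is not read as equal expression, and a link between MEF2C and KLF2 was not tested. MAPK7, which encodes ERK5, had 14.0 in each line.

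Of 15 candidate KLF target genes, drawn mostly from work on mouse lymphocytes and on other cell types, 14 had a cluster of their own and 5 exceeded 100. The homing receptor gene ITGB7, an integrin chain for lymphocyte homing to the gut, had 225 in L-540, 26.8 in HDLM-2 and 9.14 in L-428. It was highest in L-540, like KLF7 and KLF13, but a link with either was not tested. The chemokine receptor gene CCR7 had 832 in L-540, 1348 in HDLM-2 and 398 in L-428. CDKN1B, which encodes the cell cycle inhibitor p27, had 104.5 in L-540, 41.8 in HDLM-2 and 38.9 in L-428. IL2RB, a chain of the interleukin 2 receptor, had 681 in L-540, 300 in HDLM-2 and 105 in L-428. ITGB7, CDKN1B and IL2RB had the same order of the lines, while CCR7 was highest in HDLM-2. L-428 was lowest in all 4, but not in the remaining gene above 100, TGFBR3. TGFBR3, a coreceptor for transforming growth factor beta, was highest in HDLM-2 and lowest in L-540. It had 10.4 in L-540, 108.5 in HDLM-2 and 18.7 in L-428. S1PR1, the receptor by which lymphocytes leave lymphoid organs, had 29.6 in L-540, 29.6 in HDLM-2 and 27.9 in L-428. At 4-fold with the higher signal above 100, 2 of the 14 were higher in L-540 than in L-428, 1 was higher in L-540 than in HDLM-2, and 1 was higher in HDLM-2 than in each other line. Among all named clusters such calls were made for 0.338% and 0.35% in the directions of L-540, and for 0.291% against L-540 and 0.309% against L-428 in those of HDLM-2. As the list was drawn up with results of these arrays known, nothing is read from these counts. The median log2 difference of the 14 genes of L-428 minus L-540 was -0.14, while HDLM-2 minus L-540 gave 0 and HDLM-2 minus L-428 gave 0.10.

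**Figure D3:**
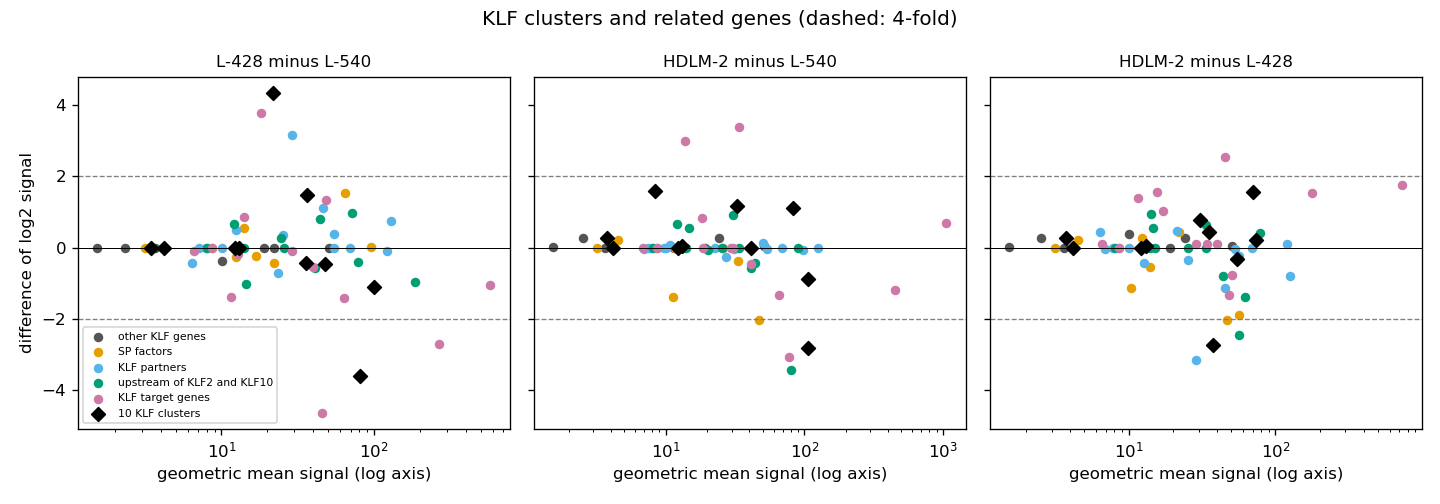
Difference of log2 signal between 2 lines against the geometric mean of their signals (log axis) for the 10 KLF clusters (diamonds) and 56 related genes (circles, colored by list), with dashed lines at 4-fold. Most related genes lie near 0, and ITGB7 (-4.62 for L-428 minus L-540) lies beyond KLF7 in the first panel.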

How the data were processed

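RNA of 3 HL cell lines was measured with 1 array per line. The deposited values are signal intensities of 22011 transcript clusters on the linear scale, described as computed with RMA in Affymetrix Expression Console. RMA includes background correction, quantile normalization and a summary of the probes. The deposited arrays nevertheless did not share one distribution, with 1126 named clusters above 100 in L-428, 599 in HDLM-2 and 677 in L-540. Why they differ, and why 39% of the named clusters are identical in all lines, was not resolved. The processing notes name the build hg18, and the paper processed these arrays together with those of blood and B cells, although no source read here says that the deposited values stem from that run. The values hold no detection calls. The threshold of 100 is the one the study applied to probe sets of endogenous retroviruses, and it is used here for transcript clusters of genes.

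Gene symbols came from the platform annotation, which pairs 14432 clusters with 1 gene, 2408 with several and 5171 with none. For genes outside the family, symbols were updated through the Entrez identifier (14404 of 14432 matched in RefSeq, GRCh38.p14) and the single-gene cluster with the highest mean was used. Clusters were called different between 2 lines at 4-fold with the higher signal above 100, without a test, because each line has 1 array, and the number of arrays limits the precision. The script that makes the calls was checked on simulated arrays with known changes. Promoter sequences are from RefSeq (GRCh38.p14).

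The members and gene lists were chosen with earlier results of these data known. Named are all members, genes of the lists and markers above 100 in at least 1 line, and the 3 genes nearest in pattern to each member above 100 that differed at least 4-fold. Genes named outside this rule are the nearest to KLF3, CCL5, S1PR1, CTBP1, SIN3A, HDAC2, MAPK7, KLF1, KLF5, KLF16 and the lineage markers CD79A, CD3D and CD7. Alternatives were thresholds of 50 and 200, folds of 2 and 8, no filter, an offset of 50, shifting the arrays to one median, quantile normalization and single-gene clusters. Computations ran in Python 3.11.15 (pandas 2.3.3, numpy 2.4.6, matplotlib 3.10.9).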

Additional observations from a re-analysis of the deposited data

How the results depend on the processing

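Counts over 10 clusters move in steps of 1. For the alternative settings no share of all named clusters is given beside them, so nothing on the family is read from these counts. With a threshold of 50, 3 KLF clusters were above it in L-540, 2 in HDLM-2 and 3 in L-428. With a threshold of 200, 1 was above it in L-540, 0 in HDLM-2 and 0 in L-428. After quantile normalization 2 exceeded 100 in HDLM-2, where KLF13 reached 102. The difference of KLF7 between L-540 and HDLM-2 was not called with an offset of 50 or at 8-fold, with a count of 0. At 2-fold, 2 clusters were called for L-540 over L-428, 1 for HDLM-2 over L-540 and 1 for HDLM-2 over L-428, and the last count was also 1 with quantile normalization. With no filter on the value, 1 cluster was called for L-428 over L-540 and 1 for L-428 over HDLM-2, which is KLF3 in both.

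Of 30 differences between lines, 22 stayed within 1.5-fold with the offset, which shrinks low signals, 30 with one median and 23 with quantile normalization. The shift to one median moves all clusters of a comparison by the same amount, here less than 1.5-fold. The count of 30 was therefore fixed by the shift and says nothing on single genes. With the offset, KLF3 had a log2 difference of 1.42 for L-428 minus L-540, and L-540 was above L-428 and HDLM-2 in KLF7 by differences of -2.17 and -1.88, taken as the other line minus L-540. Neither called difference changed direction, and an offset cannot reverse one. Shifting the arrays to one median moved the median of all named clusters to -0.31 in L-428 minus L-540 and to 0.36 in the comparison of HDLM-2 with L-428, and that of the family to -0.31 and 0.49. The low signals of KLF4, KLF9, KLF10 and KLF12 limit what can be read from their ties.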
